A study of Mus musculus with 8 samples.

Results

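The Cdk inhibitors Cdkn1a, Cdkn1b, Cdkn2a and Cdkn2c, the D-type cyclins Ccnd1, Ccnd2 and Ccnd3, and their kinase partners Cdk4 and Cdk6 were followed in the embryonic dorsal pancreas with and without Sox9. All probes whose gene name in the scanner files was one of these 9 symbols were taken, which gave 16 of 41174 non-control probes, with at least 1 probe for each of the 9 genes. RNA came from the epithelium of the dorsal pancreas, dissected by hand from e12.5 mouse embryos, and was hybridised to 8 single-colour (Cy3) Agilent arrays. The Sox9 mutants were Sox9 fl/fl; Pdx1-Cre, in which a Cre recombinase driven by the Pdx1 promoter deletes the floxed Sox9 alleles as the pancreas develops. Their Sox9 fl/fl littermates without Cre were the wild type. Floxed animals were on a mixed FVB/N x C57Bl/6J background and were crossed to Pdx1-Cre animals on C57Bl/6J. Both groups therefore carried floxed Sox9, and loss of Sox9 and presence of Cre cannot be told apart. Each genotype had 4 arrays, each from RNA of 3 pooled embryos, with 250 ng labelled. The series description names fewer biological replicates than arrays, so n = 4 rests on the sample labels and p-values measure the spread between these RNA pools.

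D-type cyclins bind Cdk4 or Cdk6, and the active kinases phosphorylate the retinoblastoma protein, which frees E2F transcription factors to switch on genes of DNA synthesis. Cdkn2a and Cdkn2c encode INK4 proteins that bind Cdk4 and Cdk6 and keep the cyclin off, whereas Cdkn1a (p21) and Cdkn1b (p27) bind cyclin-kinase complexes, above all those of Cdk2. In the embryonic pancreas, Sox9 marks and maintains multipotent progenitor cells, whose pool grows by proliferation.

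Of the 16 probes, 5 are shown by their sequence as examples. They come from Cdkn1b, Ccnd2 and Cdk6, whose other probes are not shown, and from Cdk4, whose probe spans a known motif of the kinase. They were picked as likely coding probes, and each has at least 1 reading frame free of stop codons, which the choice may have favoured. Such a frame by itself does not place a probe in coding sequence, and the probes were not assigned to exons or untranslated parts here. In the Cdk4 probe the capitals mark the codons of the metal-binding motif at the start of the activation loop of the kinase, and the listed position of the Cdk6 probe spans 42285 bases of the genome.
Cdkn1b A_51_P169173: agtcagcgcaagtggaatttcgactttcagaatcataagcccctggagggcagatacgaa
Ccnd2 A_52_P53906: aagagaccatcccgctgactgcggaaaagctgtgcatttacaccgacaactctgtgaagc
Ccnd2 A_51_P433228: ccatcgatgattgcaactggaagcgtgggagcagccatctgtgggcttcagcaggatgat
Cdk4 A_51_P437027: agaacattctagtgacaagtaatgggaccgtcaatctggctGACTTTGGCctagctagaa
Cdk6 A_52_P417489: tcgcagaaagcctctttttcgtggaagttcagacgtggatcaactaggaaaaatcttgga

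Levels are given as the log2 of the processed signal (background-subtracted brightness of a spot) relative to the 75th percentile of its array, so that 0 is the level of that percentile. The 75th percentile lay between 372.4 and 640.7 units of processed signal over the 8 arrays, and 59.4% to 77.7% of spots were well above background. Sox9, the deleted gene, stood at 3.01, 2.13, 1.82 and 2.19 in wild-type pools 1 to 4 and at -0.61, -1.79, -0.0073 and 0.77 in mutant pools 1 to 4, and fell by 2.70 on the log2 scale (limma, adjusted p = 0.0252). The groups did not overlap, and the difference lay between -3.09 and -2.24 over 17 alternative fits, of which 11 passed. It was -2.14, -1.74 and -4.39 within slides 1, 2 and 3. With limma the adjusted p was 0.0670, 0.0524 and 0.0689 without wild-type replicates 1, 2 and 4, 0.0732 without mutant replicate 1 and 0.0603 with no filter on dim probes. The Y-linked gene Ddx3y was low in 3 of the 4 wild-type pools, at -6.85, -4.86 and -7.44 in replicates 1, 2 and 4, against -0.82 in wild-type replicate 3 and -1.37 to 0.11 in the mutants. Embryo sex thus ran in part with genotype, and its part in the results was not tested. The arrays lay on 3 slides, each holding both genotypes, and differences within slides are given for the genes that passed the test and where they moved a value.

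Of the 16 probes, 14 were well above background on 4 or more arrays and were tested, and they represent 8 of the 9 genes. Cdkn1a and Ccnd1 fell in the mutant and no gene of the group rose, which makes 2 of 8 genes called at an adjusted p under 0.05 with limma, against 5.37% of the 18506 genes tested (3.82% lower and 1.55% higher). By the fit over probes, the same genes gave 2 of 14 probes called, against 3.75% of the probes tested. At an unadjusted p under 0.05 there were 3 of 8 genes, against 18.8%. The 4 wild-type and 4 mutant values did not overlap for 3 of the 8 genes, against 15.2% of all genes tested. Of these, 2 were lower in the mutant, Cdkn1a and Ccnd1 (7.99% of all genes), and 1 was higher, Cdkn2c (7.22% of all genes). The median difference (mutant minus wild-type) was -0.12 over the 14 probes and -0.0016 over all probes tested, on the log2 scale.

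**Figure D1:**
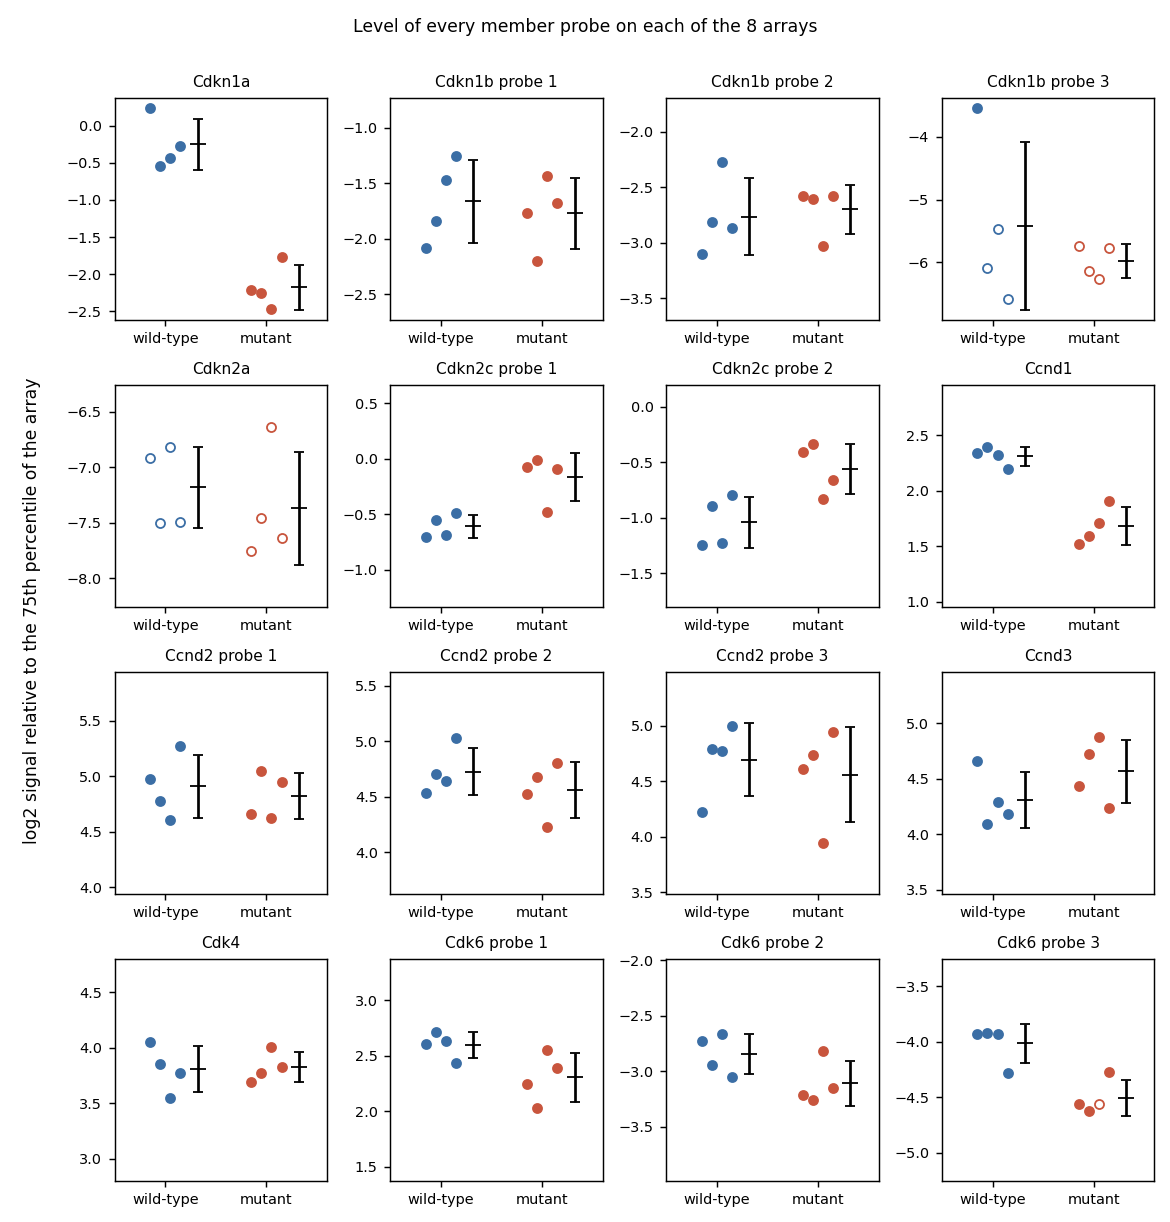
Level of each of the 16 probes on the 8 arrays, as log2 signal relative to the 75th percentile of the array, with wild-type in blue and Sox9 mutant in red. Points are arrays in replicate order, open points were not well above background, bars give the mean and SD (n = 4), and most axes span 2 log2 units, with wider axes for Cdkn1a and Cdkn1b probe 3. Probe numbers follow the order in which the probes are described for each gene. The 4 mutant values of Cdkn1a, from -2.47 to -1.76, lie below the 4 wild-type values, from -0.54 to 0.24.

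Cdkn1a showed the greatest difference of the 8 genes. It encodes p21, an inhibitor of cyclin-dependent kinases and a well-known target of p53. Its probe (A_51_P363947, at chr17:28828096-28828155 on the plus strand of mm8, the build of the scanner files) gave a processed signal of 440, 425.4, 390.3 and 532 in wild-type pools 1 to 4 and of 133.1, 109.3, 74.48 and 184.3 in mutant pools 1 to 4. Relative to the 75th percentile these are log2 levels of 0.24, -0.54, -0.43 and -0.27 in the wild type and -2.21, -2.26, -2.47 and -1.76 in the mutant. Every mutant pool was below every wild-type pool, and the probe was well above background on all 8 arrays. The mean level was -0.25 ± 0.35 (SD, n = 4) in the wild type and -2.18 ± 0.30 (SD, n = 4) in the mutant, which is 3.80-fold lower. The difference was -1.92 with a standard error of 0.21 and a 95% interval of -2.41 to -1.44 (limma, adjusted p = 0.00805, and exact permutation p = 0.0286, two-sided, the smallest that 4 against 4 arrays can give). The probe was spotted 10 times per array, and the SD over those spots was 0.0247 to 0.0936 on the log2 scale, well under the SD between pools. Within slides 1, 2 and 3 the difference was -1.93, -1.56 and -2.24.

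RefSeq places starts of Cdkn1a at 2 positions of GRCm38.p6, and the 250 bases before the upstream one are shown because they hold a pair of matches to the half-site of p53, the regulator Cdkn1a is best known for. The window is chr17:29090729-29090978 on the plus strand, and the capitals mark the matches, at -73 to -64 and at -51 to -42 relative to the start. The stretch right after the second match breaks the pattern by a single letter and is not marked. Whether the marked pair acts as a joint site was not tested. Positions on this build are not comparable with those of the probes on mm8.
Cdkn1a upstream window: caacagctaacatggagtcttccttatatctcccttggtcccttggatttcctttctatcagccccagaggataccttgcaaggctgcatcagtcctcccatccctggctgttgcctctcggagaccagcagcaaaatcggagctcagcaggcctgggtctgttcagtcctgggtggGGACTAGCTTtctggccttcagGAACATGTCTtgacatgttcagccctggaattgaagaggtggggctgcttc
RefSeq windows of 300 bases (250 before to 50 after a start) were found for 7 of the 9 genes, 11 windows in all, and both strands were searched. No window was found for Ccnd1 and Ccnd2, so these genes were not searched for any of the motifs. The p53 half-site, searched after this window had been seen, occurred in 8.36% of all 32851 windows of that length and, among the 11, only in this one. The SOX core ACAAT occurred in 31% of all windows and, among the 11, only in that of Cdk6. The E2F sites TTTCGCGC and TTTGGCGC occurred in 0.813% of all windows and in none of the 11. These are matches of letters, and no binding was measured.

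Cdkn1b, which encodes p27, was read by 3 probes. The first (A_51_P146126, chr6:134890890-134890949, plus strand) stood at -2.09, -1.84, -1.47 and -1.26 in wild-type pools 1 to 4 and at -1.76, -2.20, -1.44 and -1.68 in mutant pools 1 to 4. The groups overlapped, and the difference was -0.11 with a 95% interval of -0.63 to 0.41 (limma, adjusted p = 0.895). The second (A_51_P169173, chr6:134886778-134886836, its sequence above, 10 spots per array) ranged from -3.1 to -2.27 in the wild type and from -3.03 to -2.58 in the mutant, with a difference of 0.064 and an interval of -0.39 to 0.52. The third (A_52_P673863, chr6:134889281-134889340) was well above background only in wild-type replicate 1, at -3.54, and was not tested. Neither tested probe of Cdkn1b differed beyond the spread of the pools, and their intervals together run from -0.63 to 0.52. Within slides 1, 2 and 3 the first probe differed by 0.40, -0.26 and -0.53.

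Cdkn2a, which encodes p16INK4a and, from another reading frame, p19ARF, was not well above background on any of the 8 arrays. The processed signal of its probe (A_51_P144813, chr4:88745872-88745931, minus strand, 10 spots per array) was 3.1, 3.44, 5.33 and 3.57 in wild-type pools 1 to 4 and 2.87, 2.98, 4.17 and 3.14 in mutant pools 1 to 4. Such signals carry only a bound on the level, and no fold change or test is given.

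Cdkn2c, which encodes p18INK4c, was higher in every mutant pool than in every wild-type pool but did not pass the test. Its first probe (A_51_P513719, chr4:109159106-109159165, minus strand) stood at -0.71, -0.55, -0.69 and -0.49 in wild-type pools 1 to 4 and at -0.08, -0.01, -0.48 and -0.10 in mutant pools 1 to 4. Mutant replicate 3 lay next to the highest wild-type pool, and the other 3 mutant pools lay clearly above. The difference was 0.44 with a standard error of 0.13 and a 95% interval of 0.14 to 0.75 (limma, adjusted p = 0.103, and exact permutation p = 0.0286). Within slides 1, 2 and 3 it was 0.067, 0.60 and 0.59. Without mutant replicate 3, the only mutant pool on slide 1, it was 0.55 and passed (limma, adjusted p = 0.0385). The low value within slide 1 and this pass thus reflect the same array. The second probe (A_51_P513720, chr4:109159084-109159145) shares 40 bases with the first and is no separate evidence. Its difference was 0.48, and its groups overlapped (limma, adjusted p = 0.166).

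Ccnd1 was the only D-type cyclin that passed the test, and it fell. Cyclin D1 is the member of the family whose transcription is best known to follow growth factor signalling. The probe (A_51_P262766, chr7:144739658-144739717, minus strand, 10 spots per array) gave log2 levels of 2.34, 2.39, 2.32 and 2.19 in wild-type pools 1 to 4 and of 1.52, 1.59, 1.71 and 1.91 in mutant pools 1 to 4. The wild-type pools lay close together, the mutant pools were spread more widely, and the groups did not overlap. The mean level was 2.31 ± 0.085 (SD, n = 4) in the wild type and 1.68 ± 0.17 (SD, n = 4) in the mutant, which is 1.55-fold lower. The difference was -0.63 with a standard error of 0.12 and a 95% interval of -0.90 to -0.36 (limma, adjusted p = 0.0228, and exact permutation p = 0.0286). Within slides 1, 2 and 3 it was -0.68, -0.60 and -0.68.

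The size of the Ccnd1 difference moved little when any 1 array was left out, from -0.70 to -0.58, but the call did not always hold. With limma the adjusted p was 0.0567, 0.0638, 0.0630 and 0.0566 without each of wild-type pools 1 to 4 in turn and 0.0749 and 0.0716 without mutant replicates 1 and 2. It was 0.0445 and 0.0184 without mutant replicates 3 and 4, and 0.0682 with no filter on dim probes. Cdkn1a passed under each of the 17 alternative fits run, with adjusted p from 0.00108 to 0.0351 and differences from -2.06 to -1.49.

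Ccnd2 was read by 3 probes, each with overlapping groups. At the first (A_51_P433228, chr6:127104788-127104847, minus strand) the level was 4.98, 4.77, 4.61 and 5.28 in wild-type pools 1 to 4 and 4.66, 5.05, 4.63 and 4.95 in mutant pools 1 to 4, a difference of -0.087 with a 95% interval of -0.49 to 0.31 (limma, adjusted p = 0.890). The other probes, at chr6:127114297-127114356 (A_52_P53906) and chr6:127095295-127095354 (A_52_P514391), gave differences of -0.17 and -0.13, with limma adjusted p of 0.761 and 0.897. The lowest values of both were those of mutant replicate 3, at 4.23 and 3.95. The first probe differed by -0.15, 0.20 and -0.077 within slides 1, 2 and 3.

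Ccnd3, the third D-type cyclin, stood at 4.66, 4.09, 4.29 and 4.18 in wild-type pools 1 to 4 and at 4.43, 4.72, 4.87 and 4.24 in mutant pools 1 to 4 (A_51_P238448, chr17:47062509-47062568, plus strand). The groups overlapped, since wild-type replicate 1 was above mutant replicates 1 and 4. The difference was 0.26 with a 95% interval of -0.16 to 0.68 (limma, adjusted p = 0.556), and within slides 1, 2 and 3 it was 0.78, 0.042 and 0.30.

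**Figure D2:**
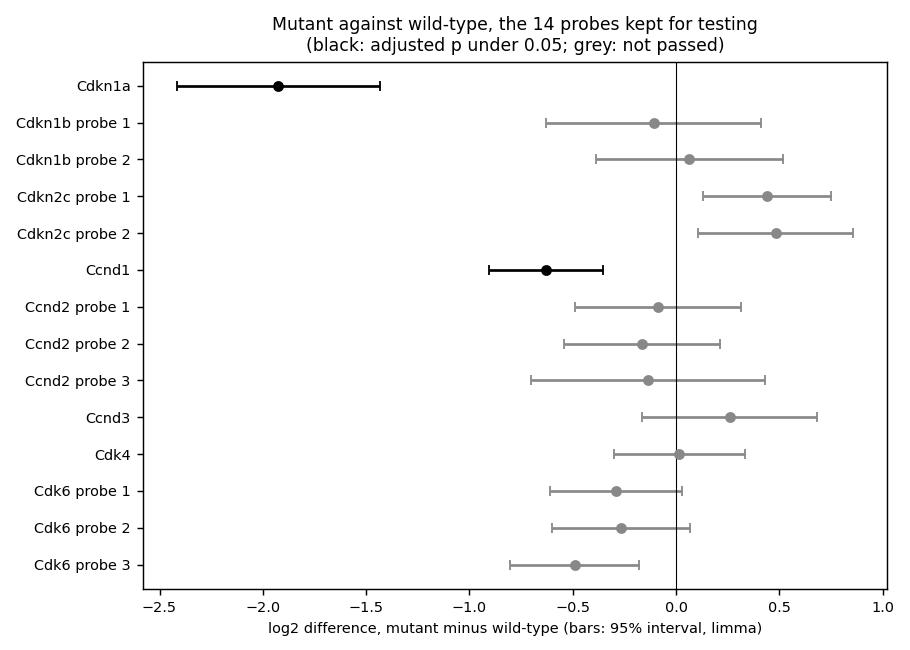
Difference between mutant and wild-type in log2 signal for the 14 tested probes, with 95% intervals from limma. Black marks an adjusted p under 0.05, which Cdkn1a (-1.92) and Ccnd1 (-0.63) reached, and grey marks probes that did not.

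Cdk4 differed least among the 8 genes. Its probe (A_51_P437027, chr10:126467860-126467919, plus strand, its sequence above) stood at 4.05, 3.85, 3.55 and 3.77 in wild-type pools 1 to 4 and at 3.69, 3.77, 4.004 and 3.83 in mutant pools 1 to 4. The mutant range lay within the wild-type range, and the difference was 0.015 with a 95% interval of -0.30 to 0.33 (limma, adjusted p = 0.978). It was 0.15, 0.21 and -0.14 within slides 1, 2 and 3.

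Cdk6, the other kinase, was lower on average at each of its 3 probes, and none passed the test. At the first probe (A_51_P489779, chr5:3535293-3535352, plus strand) the level was 2.61, 2.72, 2.63 and 2.43 in wild-type pools 1 to 4 and 2.24, 2.03, 2.55 and 2.39 in mutant pools 1 to 4. Of the mutant pools, only replicate 3 reached into the wild-type range, and the difference was -0.29 with a 95% interval of -0.61 to 0.024 (limma, adjusted p = 0.309, and exact permutation p = 0.0571). This first probe differed by -0.16, -0.31 and -0.49 within slides 1, 2 and 3. The second probe (A_52_P417489) differed by -0.27 (limma, adjusted p = 0.438). The third probe (A_51_P388310, chr5:3527675-3527734) stood at -3.93, -3.92, -3.93 and -4.28 in the wild type and at -4.57, -4.63, -4.57 and -4.27 in the mutant, where replicate 3 was not well above background. Its difference of -0.49 did not pass (limma, adjusted p = 0.0947). The probes A_52_P417489 and A_51_P388310 were dim, with processed signals of 54.59 to 83.03 and 17.46 to 40.99. With normexp background correction they differed by -0.13 and -0.18, and in the authors' values by -0.044 and -0.13. The size of their falls thus depended on the processing. The brighter probe A_51_P489779 differed by -0.28 with normexp and by -0.30 in the authors' values. Probes of 1 gene read the same RNA and are not replicates.

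Differences between paired genes were compared on each array for 5 pairs. Cdkn1a against Cdkn1b shifted by -1.82 on the log2 scale and Ccnd1 against Ccnd3 by -0.89, in both without overlap of the groups (exact permutation p = 0.0286 each, 0.0714 after Benjamini-Hochberg adjustment over the 5 pairs). For Ccnd1 against Ccnd2 the shift was -0.54 (exact permutation p = 0.0857, adjusted 0.107), and for Ccnd2 against Ccnd3 it was -0.35 (exact permutation p = 0.286, adjusted 0.286). Cdk4 against Cdk6 shifted by 0.31 (exact permutation p = 0.0857, adjusted 0.107). None of the 5 passed after adjustment. No pair could pass by itself, because 0.0286 is the smallest p that 4 against 4 arrays can give. With only Cdkn1a against Cdkn1b and Ccnd1 against Ccnd3 at that p, their adjusted value is 0.0714, whatever the size of the shift. With quantile normalization, in the authors' values, or with the mean of each gene's kept probes, Cdk4 against Cdk6 reached the smallest p as well. There the adjusted p of Cdkn1a against Cdkn1b, Ccnd1 against Ccnd3 and Cdk4 against Cdk6 was 0.0476 (exact permutation test).

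Of 26 partner genes of this pathway (other Cdk inhibitors, retinoblastoma family members, E2F factors and their partners, cyclins E and A, Cdk1 and Cdk2 with their regulators, Myc and Trp53), none rose and none fell with limma, against 5.37% of all genes tested. At an unadjusted p under 0.05 there were 2 of 26, Myc and Cdkn1c, against 18.8% of all genes. The difference was above 0 for 15 and below 0 for 11, with a median of 0.0072, and the median over all genes tested was 0.016. Cdkn1c, which encodes the Cdk inhibitor p57 and is named here after its values were seen, differed by 0.32 without overlap of the groups (limma, adjusted p = 0.165). The 4 with the greatest differences were Myc, a growth-promoting transcription factor, Cdkn2b, the INK4 gene next to Cdkn2a, Trp53, which encodes p53, and Rbl2, a relative of the retinoblastoma gene. Myc stood at 2.28 ± 0.31 (SD, n = 4) in the wild type and 1.59 ± 0.29 (SD, n = 4) in the mutant, without overlap, a difference of -0.69 (limma, adjusted p = 0.0930). Within slides 1, 2 and 3 it was -0.072, -0.76 and -0.93. In the authors' own normalized values Myc passed, at -0.70 (limma, adjusted p = 0.0384), as the only gene of the 26 to do so there. Cdkn2b differed by -0.46 (limma, adjusted p = 0.521) and was above background in 2 wild-type and 3 mutant pools. It differed by -0.071 with normexp background correction, by -0.0039 in the authors' values and by -0.19 without wild-type replicate 3. Trp53 differed by 0.41 (limma, adjusted p = 0.600) and Rbl2 by 0.37 (limma, adjusted p = 0.292). Trp53 differed by 0.19 without wild-type replicate 4, 0.28 without mutant replicate 3, 0.67 without mutant replicate 2, 0.23 with the mean of its kept probes and 0.21 with slide as a block. Within slides 1, 2 and 3 Trp53 differed by 0.52, 0.26 and -0.065. With the mean of kept probes Rbl2 differed by 0.11, and by 0.23 both without wild-type replicate 1 and with normexp.

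Among 16 genes of DNA replication and mitosis, such as the Mcm helicase subunits and Mki67, the differences ran from -0.27 to 0.13 with a median of -0.0051. None was called with limma, against 5.37% of all genes tested, and 0 had an unadjusted p under 0.05, against 18.8%. Within slides 1, 2 and 3 their median difference was 0.31, -0.054 and -0.10. Their median level was 4.21 to 4.46 in the wild-type pools and 4.15 to 4.41 in the mutant pools.

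**Figure D3:**
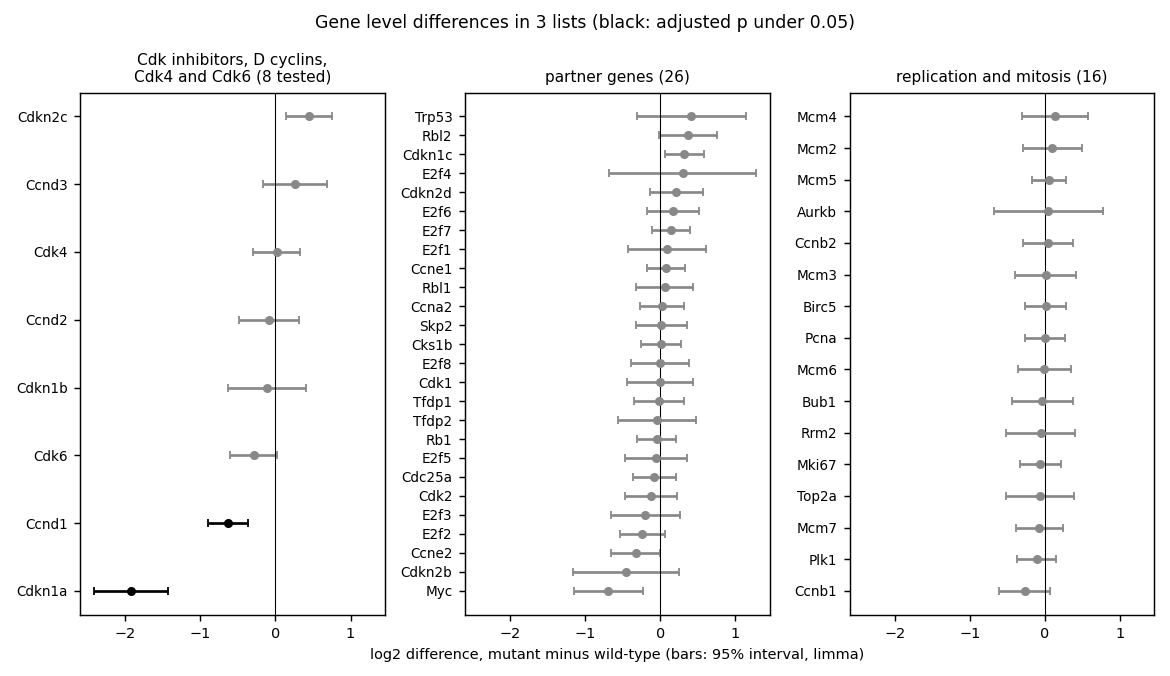
Difference between mutant and wild-type in log2 level for the 8 tested genes of the group, the 26 partner genes and the 16 replication and mitosis genes, with 95% intervals from limma. Cdkn1a and Ccnd1, in black, have an adjusted p under 0.05, and the genes in grey do not.

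Markers of the epithelium, the labelled tissue, and of other cell types moved with genotype in the same pools. Of 10 epithelial genes, 9 fell with limma, against 3.82% of all genes tested. The other, Krt19, differed by -0.14 with overlapping groups (limma, adjusted p = 0.864). The median difference of the 10 genes was -2.13, with a range of -2.75 to -0.14. The median level of these genes was 2.61, 2.07, 2.24 and 2.40 in wild-type pools 1 to 4 and 0.27, -0.43, -0.38 and 0.97 in mutant pools 1 to 4. Cdh1, which encodes E-cadherin, fell by 2.51 (limma, adjusted p = 0.0140). The tissue carried epithelial markers in all 8 pools, but at lower levels in the mutant. Of 8 mesenchymal genes 3 rose, of 6 endothelial genes 2 and of 8 macrophage genes 4, against 1.55% of all genes tested. Every gene of these 3 lists was above 0, with medians of 0.69, 0.50 and 0.64. Each of these markers was well above background in at least 3 pools of each genotype.

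The median of the mesenchymal genes was 3.76 to 4.10 in the wild-type pools and 4.35 to 4.82 in the mutant pools, that of the endothelial genes 0.91 to 1.04 and 1.22 to 1.84, and that of the macrophage genes 0.82 to 1.05 and 1.38 to 1.84. In bulk RNA, fewer cells of a type and less RNA per cell cannot be told apart. The fall of Cdkn1a, at -1.92, was close to the median fall of the epithelial genes, and wild-type replicate 1 and mutant replicate 4 had the highest Cdkn1a, Sox9 and epithelial median of their genotypes. The lowest mutant pool was replicate 3 for Cdkn1a (-2.47) but replicate 2 for Sox9 (-1.79) and the epithelial median (-0.43). Wild-type replicate 2 was lowest for Cdkn1a (-0.54) and the epithelial median (2.07), and wild-type replicate 3 for Sox9 (1.82). Ccnd1 fell less, and its highest mutant pool was also replicate 4. Its lowest was mutant replicate 1 (1.52), whose epithelial median (0.27) was above those of mutant replicates 2 and 3. The highest wild-type Ccnd1 (2.39) was that of replicate 2. The part of the epithelial and other markers in the values of Cdkn1a, Ccnd1 and Cdkn2c was not tested. Nor was it tested for genes with little difference, such as Cdk4, Ccnd2 and the replication genes. Their values in these pools do not show whether their level within the epithelium was unchanged.

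**Figure D4:**
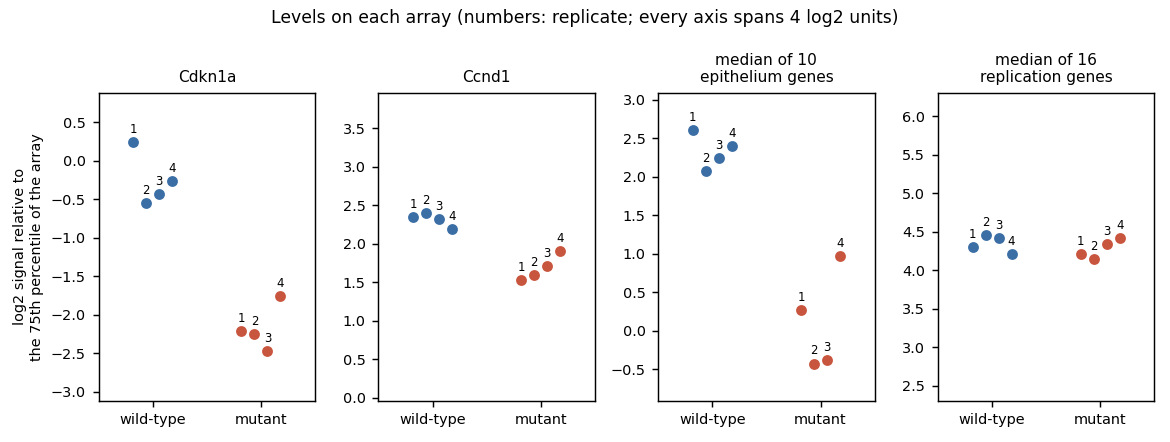
Level of Cdkn1a and Ccnd1 and the median level of 10 epithelial and 16 replication and mitosis genes on each array, as log2 signal relative to the 75th percentile. Numbers are replicates, and every axis spans 4 log2 units. Cdkn1a, Ccnd1 and the epithelial median are lower in all 4 mutant pools, and the replication median overlaps, at 4.21 to 4.46 in the wild type and 4.15 to 4.41 in the mutant.

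For each gene, the 2 genes with the most similar course over the 8 arrays were taken from 13937 named genes by Pearson's r, as a description in which the arrays share genotype. Cdkn1a ran most closely with Krtcap3 and Fam241b (r = 0.998 for both), which themselves differed by -1.45 and -1.96. Ccnd1 ran with Klhl21 (r = 0.988) and Chchd4 (r = 0.983), and Cdkn2c with Il2rg (r = 0.992), a subunit of cytokine receptors of blood cells, and Serpine2 (r = 0.983). Cdk6 ran with Fam184b (r = 0.994) and Sox8 (r = 0.969), a gene of the same SOX subfamily as Sox9, which differed by -0.52 (limma, adjusted p = 0.254). Ccnd2 ran with Rps6ka3 (r = 0.986) and Rhobtb2 (r = 0.959), and Ccnd3 with St6galnac4 (r = 0.988) and Cotl1 (r = 0.985). The weakest likenesses were those of Cdkn1b, with Zfp934 (r = 0.908) and Tcf7l2 (r = 0.874), and Cdk4 ran with Wdr36 (r = 0.973) and Ufc1 (r = 0.966).

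**Figure D5:**
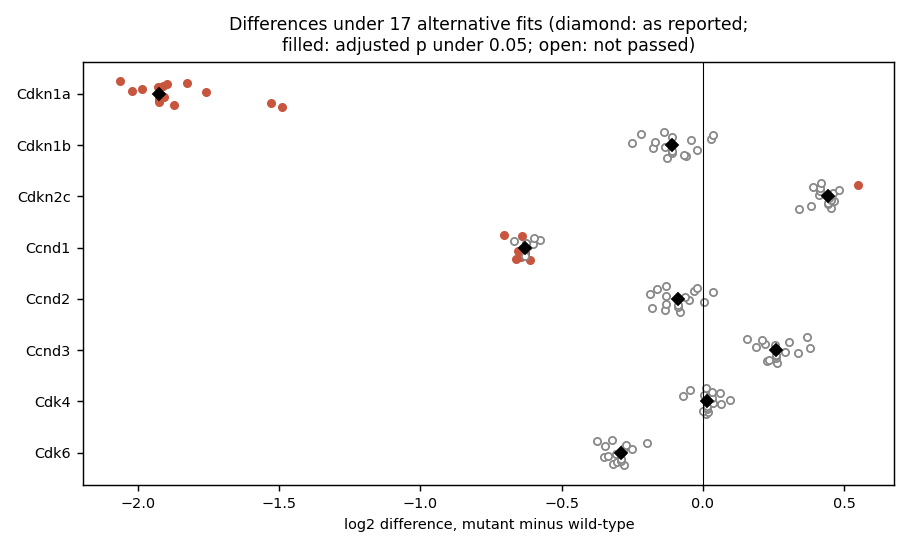
Difference between mutant and wild-type for the 8 tested genes as reported (diamonds) and under 17 alternative fits (points), in log2 units, with filled points for an adjusted p under 0.05. Cdkn1a lies between -2.06 and -1.49 in all 17, Cdkn2c passes only without mutant replicate 3 (0.55), and the points of Cdkn1b, Ccnd2 and Cdk4 fall on both sides of 0.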

How the data were processed

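RNA of 4 wild-type and 4 Sox9 mutant pools was measured on 8 Agilent arrays. Per the file headers, scanner files were made with Feature Extraction 9.5.3.1, and their deposited processed signal gives a linear intensity from which background was subtracted, without normalization between arrays. The deposited quality flags of each spot are of another kind than measurements (unit "other"). The authors' deposited value table holds intensity values of 33067 spots with a median of 227 on every array, and the submitters' processing notes name limma without a version. How its dim spots were left out is not given in the sources used here.

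From 45018 spots, 1639 control spots were left out, as were spots that the scanner software marked as outliers. Repeat spots of a probe were averaged, and log2 of the processed signal minus the 75th percentile of the array was fitted with limma 3.58.1 in R 4.3.3 (lmFit and eBayes, 2 groups). Probes well above background on 4 or more arrays were tested, 27389 of 41174. A gene was represented by its kept probe of highest mean level, and p-values were adjusted over all 18506 genes (or all kept probes) by Benjamini-Hochberg, with a threshold of 0.05. The exact permutation tests were two-sided over the 70 assignments. Of the probes, 23374 were named by accession through RefSeq. Another 4500 took the RefSeq symbol of a probe with the same name in the files, and 13300 kept the name in the files. The steps were tested on simulated data with known changes, drawn independently for each array. Such data hold no effect of slide, sex or cell types and cannot show how the fit deals with these. The precision is limited by the number of arrays.

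The genes, lists and tests were chosen with earlier results of these data known. All 9 genes and probes are described. Of the partner genes those past the threshold or, failing that, the 4 of greatest difference are named, for each gene the 2 likest genes, and at most 2 genes of each marker list. Alternatives changed the background correction (normexp with an offset of 50), the normalization, the filter, the probe rule and the blocks, used the authors' table, or left out 1 array.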

Additional observations from a re-analysis of the deposited data

Results flagged for a closer look

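In 3 of 52 groups of 4 arrays checked, 1 pool stood apart from the other pools of its genotype by Dixon's test at the 95% level, which chance alone does in about 1 in 20 groups. Mutant replicate 3 was low at the Cdkn1b probe A_51_P169173, at -3.03 on the log2 scale, with a gap of 0.929 of the group's range. Wild-type replicate 4 was low at the Cdk6 probe A_51_P388310, at -4.28, with a gap of 0.964 of the range. For the difference between Cdk4 and Cdk6, mutant replicate 2 was high, at 1.74, with a gap of 0.95 of the range.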

How the results depend on the processing

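The number of genes called with limma, 994 as reported, was 419 with no filter on dim probes, 340 with the replicate block and 1536 with slide as a random block, and lay between 395 and 971 with 1 array left out. The share called higher was 28.9%, against 41.7% in the authors' table, 39.7% with probes above background on all 8 arrays, 10% with no filter and 7.94% with the replicate block. Genes of the group called numbered 2 as reported, 1 with no filter and 1 with the replicate block, and 1 to 3 with 1 array left out. For the 16 probes the number was likewise 2 as reported, 1 with no filter, 1 with the replicate block, and 1 to 2 with 1 array left out. The call lost was that of Ccnd1 (limma adjusted p 0.0682 with no filter and 0.136 with the replicate block). Arrays of the same replicate number did not deviate together (correlations of -0.354, -0.295, -0.00485 and 0.0875, and 0 of 4 closest to its own number). This gave no sign that the numbers pair the samples, but so few arrays cannot exclude a pairing. Of the partner genes 1 was called in the authors' table, and within slide 1 their median was 0.22 and that of the replication genes 0.31. Sox9 had an adjusted p of 0.0696 with the replicate block (limma). Differences near 0 turned sign. With 1 array left out, Cdkn1b ran from -0.25 to 0.035, its probe A_51_P169173 from -0.047 to 0.23, Ccnd2 from -0.19 to 0.035, the Ccnd2 probe A_52_P514391 from -0.29 to 0.070 and Cdk4 from -0.071 to 0.097, among them 0.027 for Cdkn1b without wild-type replicate 4 and -0.046 for Cdk4 without mutant replicate 3. Cdk4 was -4e-04 in the authors' table, and with a slide block Ccnd2 was 0.0035 and the probe A_51_P169173 -0.035. The cause of these changes was not tested. Pairs of genes were not run with slide as a random block. Signal over background limits Cdkn2a and the third Cdkn1b probe, for which these arrays give no difference.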
